A study of Mus musculus with 23 samples.

Results

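The messenger RNA of F9 cells given all-trans retinoic acid (RA) for 48 h was compared with that of F9 cells given only its solvent, dimethyl sulfoxide (DMSO), for the same time. F9 is a mouse embryonal carcinoma cell line, a tumour-derived stem cell that can be turned toward extraembryonic endoderm in culture. The comparison was defined by treatment and time alone: it holds 3 of the 14 mRNA libraries, and the study has 23 samples in all. Replicates 1 and 2 received RA at 1e-07 M for 48 h, and the only control library of that time received 0.001% DMSO. The remaining mRNA libraries were 4 at 0 h without either agent, 2 each after 6, 12 and 24 h of RA, and 1 after 24 h of DMSO. They supplied the spread that a control of 1 library cannot give, and the 0 h and DMSO libraries together make 6 libraries without RA. All groups are the same cell line on gelatine-coated plates, so nothing here was measured in an embryo, and nothing says that replicates came from separate cultures. The p-values therefore measure no more than the spread among the libraries, part of which may be technical.

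RA acts by entering the nucleus and binding RA receptors (RAR), which sit on DNA as pairs with retinoid X receptors (RXR). Their binding sites are direct repeats of a short half-site, and a repeat spaced by 5 bases is the classical RA response element. Genes of RA breakdown and the Hox genes, transcription factors that pattern the body axis, are textbook targets. In F9 cells RA is known to switch on primitive endoderm genes, and products of the parietal endoderm, the yolk sac layer that secretes a thick basement membrane, appear when cyclic AMP is raised as well. Aggregated F9 cells are known to make visceral endoderm, the absorptive yolk sac layer, instead.

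The 300-base promoters of Cyp26a1 and Rarb are shown because they were the only promoters of called genes that held a direct repeat spaced by 5 bases. Cyp26a1 encodes an enzyme that destroys RA, and Rarb encodes RAR beta. Sequences run from 250 bases before to 50 bases after the annotated start on the strand of the gene (RefSeq, build GRCm38.p6), and capitals mark the repeat. The Cyp26a1 promoter lies on chromosome 19 at chr19:37697558-37697857 (plus strand), and the repeat begins 32 bases before the start and reads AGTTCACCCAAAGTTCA on the opposite strand. The Rarb promoter lies at chr14:16575427-16575726 (minus strand), and its repeat begins 53 bases before the start.
Cyp26a1: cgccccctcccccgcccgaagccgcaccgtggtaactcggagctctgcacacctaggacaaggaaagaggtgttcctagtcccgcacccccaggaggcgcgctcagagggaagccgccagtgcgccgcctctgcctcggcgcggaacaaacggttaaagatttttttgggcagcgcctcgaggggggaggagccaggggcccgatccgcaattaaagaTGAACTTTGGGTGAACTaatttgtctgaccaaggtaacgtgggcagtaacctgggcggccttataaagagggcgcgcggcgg
Rarb: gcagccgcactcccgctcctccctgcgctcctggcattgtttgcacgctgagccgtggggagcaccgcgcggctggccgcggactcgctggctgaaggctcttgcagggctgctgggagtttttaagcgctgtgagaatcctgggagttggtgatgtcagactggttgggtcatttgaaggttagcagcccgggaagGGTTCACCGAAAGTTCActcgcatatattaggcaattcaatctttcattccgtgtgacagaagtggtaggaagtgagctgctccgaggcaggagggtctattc
Searched on both strands with 4 half-sites (AGGTCA, which is the consensus, its variant AGTTCA, then also GGGTCA together with GGTTCA), a repeat with a spacer of 5 was found at 5 of the 10880 tested genes whose promoter could be matched by symbol (0.05%). It was found at 2 of 598 matched genes called higher (0.33%) and at 0 of 391 called lower (0.00%). A spacer of 1 occurred at 0.28% of all matched genes, 0.17% of those called higher and 0.51% of those called lower. For a spacer of 2 these shares were 0.13%, 0.17% and 0.00%. With so few matches the shares of called genes rest on 0 to 2 genes each. A match is a run of letters, not a measured binding site, and the absence of a match covers this window alone.

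Reads counted in genes came to 7973304 in the DMSO library and to 9023685 and 10948932 in RA replicates 1 and 2, and 16155 genes were tested. The libraries fell into 2 sets by the share of reads that fell in no gene feature: 58.46% in the DMSO library and 58.77% in RA replicate 1 (set 1), but 53.65% in RA replicate 2 (set 2). Over all 14 libraries this share was 57.30 to 59.43% in set 1 and 52.51 to 53.77% in set 2, and both DMSO libraries lay in set 1. The labels name 2 sequencers with different read lengths without saying which library had which, so the set was not tied to a sequencer. Every count below is given for the fit with 1 term per group and, where stated, for the same fit with a term for the set. RA replicates 1 and 2 differed more than counting error allows (chi-squared per degree of freedom 38.06) and were counted as 2 samples, as the labels give them. They lie in different sets, so a technical difference cannot be told apart from one between cultures. In a bulk sample, fewer cells of a type and less RNA per cell cannot be told apart.

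After 48 h, 1286 of 16155 genes (7.96%) were called at an adjusted p under 0.05 in edgeR's quasi-likelihood test, 776 of them higher with RA (4.80%) and 510 lower (3.16%). The increases were larger than the decreases: the median log2 change was 2.75 among genes called higher and -1.34 among genes called lower, beside 0.08 over all genes tested. Of the genes called higher, 84 had 0 counts in the DMSO library. Both RA libraries lay outside all 6 libraries without RA for 1273 of the called genes (99.0%), where over all genes 24.3% had both RA libraries above and 19.2% both below. With the set term 3892 genes were called (24.1%), 2042 higher (12.6%) and 1850 lower (11.5%), and they held all 1286 with the same sign. The count rests on few libraries: it was 612 without RA replicate 1, 406 without RA replicate 2 and 851 without replicate 2 of 0 h. Among 139 called genes that the naming rule chose, 75 lost their call in at least 1 of the 13 fits that each left out 1 library, and 0 changed sign. Where that holds for a gene named below, the lost call is marked, mostly with the highest adjusted p of those fits as its leave-one-out p. The library left out was then an RA 48 h library unless others are named.

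**Figure D1:**
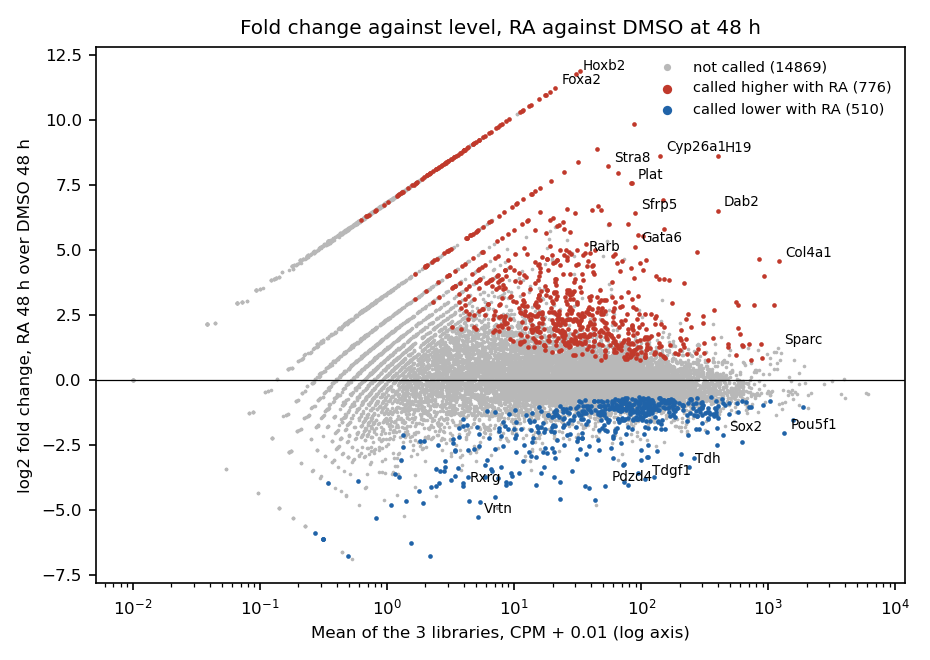
Log2 fold change of RA over DMSO at 48 h (vertical axis) against the mean level of the 3 libraries in CPM (counts per 1000000 reads in genes, log axis), for the 16155 genes tested, with the 776 called higher in red and the 510 called lower in blue. The straight upper band holds genes with 0 counts in the DMSO library, whose fitted change is set by the level with RA.

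The retinoid system itself changed on 2 sides: the genes that bind and destroy RA rose, while receptor transcripts other than Rarb fell or did not pass. Rarb (ENSMUSG00000017491) stood at 1.81 CPM (counts per 1000000 reads in genes) in the DMSO library and at 47.5 and 54.3 CPM in RA replicates 1 and 2. That is a log2 change of 4.80 ± 0.48 (standard error, SE; edgeR, adjusted p = 0.00133), and the 2 RA libraries lay far above all 6 without RA, which reached 1.81 CPM at most. Rarg, which encodes the RAR that is abundant in stem cells, went the other way, from 522 CPM to 178 and 106 CPM (-1.88 ± 0.33, adjusted p = 0.00994, leave-one-out p 0.0641). Rxrg, an RXR, fell from 10.6 CPM to 0.923 and 0.334 CPM (-4.09 ± 0.73, adjusted p = 0.0102, leave-one-out p 0.0747). Of the 6 receptors tested, 1 was called higher and 2 lower (0 lower without RA replicate 2), or 1 and 3 with the set term. Rara was at 151 CPM with DMSO and 74.3 and 57.4 CPM with RA and passed only with the set term (adjusted p = 0.193 without it and 0.0192 with it).

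Among 15 tested genes of retinoid uptake, binding and breakdown 8 were called higher (53.3%, against 4.80% of all genes) and 0 lower. This list and the others were chosen with earlier results of these data known. A share above that of all genes may thus be partly built in, here and below. The 8 became 10 with the set term and 4 without RA replicate 2. Cyp26a1 (ENSMUSG00000024987) had 0.518 CPM in the DMSO library and 182 and 237 CPM with RA, a log2 change of 8.62 ± 1.18 (adjusted p = 0.00344). Its relatives Cyp26b1 and Cyp26c1 had 0 counts in the DMSO library and stood at least 53.5-fold and at least 12.7-fold higher with RA, against a floor of 3 counts in that library. Cyp26c1, the neighbour of Cyp26a1 on chromosome 19, reached 5.95 and 4.09 CPM, and Cyp26b1 14.5 and 26.0 CPM. The leave-one-out p was 0.0544 for Cyp26b1 and 0.0634 for Cyp26c1. Stra6, the cell-surface receptor that takes up retinol, rose from 0.518 CPM to 37.1 and 34.8 CPM (6.08 ± 0.72, adjusted p = 0.00203).

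The binding proteins moved the same way. Crabp2, which carries RA to its receptors, rose from 2.98 CPM to 167 and 115 CPM (5.55 ± 0.56, adjusted p = 0.00133). Crabp1, which holds RA in the cytoplasm, rose from 2.07 CPM to 27.1 and 65.2 CPM (4.47 ± 0.95, adjusted p = 0.0212, leave-one-out p 0.0706). Dhrs3, an enzyme that turns retinal back into retinol, rose from 1.43 CPM to 52.0 and 40 CPM (5.00 ± 0.63, adjusted p = 0.00245). The median log2 change of the 15 was 5.55, or 3.67 with the 5 genes at 0 counts in the DMSO library placed at their bound.

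Of 19 genes listed as early RA targets 12 were called higher (63.2%), 7 without RA replicate 2, and 0 lower. With the set term 15 rose and 1, Gbx2, fell. Gbx2, a patterning factor, was at 165 CPM with DMSO and at 27.1 and 18.3 CPM with RA (adjusted p = 0.0525 without the set term). Stra8, which germ cells need to start meiosis, had 2 counts in the DMSO library and 90.2 and 73.9 CPM with RA, a count ratio of 313 (95% interval 86.6 to 2588). Such intervals, and the floors above, cover counting error only. They compare with the DMSO 48 h library alone, and some genes given such values stood higher at 0 h or with DMSO at 24 h. Zfp703, a transcriptional repressor, rose from 0.778 CPM to 62.5 and 82.2 CPM (6.52 ± 0.70, adjusted p = 0.00141). Tgm2, a transglutaminase, rose from 1.56 CPM to 38.6 and 37.6 CPM, and Nrip1, a corepressor of nuclear receptors, from 17.1 CPM to 59.4 and 102 CPM. The orphan nuclear receptor Nr2f2 had 0 counts with DMSO and stood at least 29.9-fold higher, at 6.26 and 16.0 CPM. Its relative Nr2f1 stood at least 10.7-fold higher, at 1.85 and 6.01 CPM, but its call ended in 11 of the 13 fits, all but those without 0 h replicate 1 or the DMSO 24 h library (leave-one-out p 0.141).

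Hox genes rose along most of the A and B clusters. Hox A had 6 of 10 tested genes called higher (60%; 7 with the set term) and Hox B 8 of 10 (80%; 8 with the set term, 5 without RA replicate 2), with 0 lower in either. Hox C had 2 of 7 called higher, 4 with the set term, 0 without RA replicate 2 and 1 in 10 further fits that left out 1 library, and Hox D had 0 of 7, and whether the clusters differ was not tested. Hoxb2 (ENSMUSG00000075588) had 0 counts in the DMSO library and 41.2 and 51.3 CPM with RA, at least 120.3-fold higher. Hoxb1, at the end of the cluster that opens first in the embryo, had 2 counts with DMSO and 16.6 and 30.5 CPM with RA (count ratio 93.8, 95% interval 25.8 to 776).

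Hoxa5 had 1 count with DMSO and 42.8 and 30.9 CPM with RA (count ratio 279, 95% interval 50.0 to 11053), and Hoxa3 and Hoxa4 also had 1 count each and stood at 32.1 and 25.7 CPM and at 11.7 and 10.8 CPM. Hoxb9 lies far from the early end and still rose, from 0.648 CPM to 29.3 and 43.8 CPM (5.79 ± 0.95, adjusted p = 0.00707). The posterior members Hoxa9, Hoxc8 and Hoxc9 had 0 counts with DMSO, and both RA libraries held them, replicate 2 more than replicate 1: 1.95 and 11.7 CPM, 2.46 and 13.3 CPM, and 2.67 and 10.5 CPM. None of the 3 passed (adjusted p = 0.0531, 0.0941 and 0.111), while with the set term all 3 did (0.0128, 0.0145 and 0.0208). Hoxc5 was called, at least 17.2-fold higher (leave-one-out p 0.0573), and so was Hoxc4 at 2.56 and 5.68 CPM, whose call ended in 11 of the 13 fits, all but those without 0 h replicate 1 or the DMSO 24 h library (0.144). In Hox D the call was for a decrease: Hoxd11 stood at 3.89 CPM with DMSO and at 0.205 and 0.0835 CPM with RA (-4.67 ± 1.24, adjusted p = 0.0460, leave-one-out p 0.205, also without 0 h replicate 1, 3 or 4 or 6 h replicate 2). Hoxb3os, an antisense RNA of the B cluster at 24.7 and 22.3 CPM with RA and 0 with DMSO, lies among other transcripts there, and no source used here says whether counting used strand, so reads of such partners cannot be told apart.

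**Figure D2:**
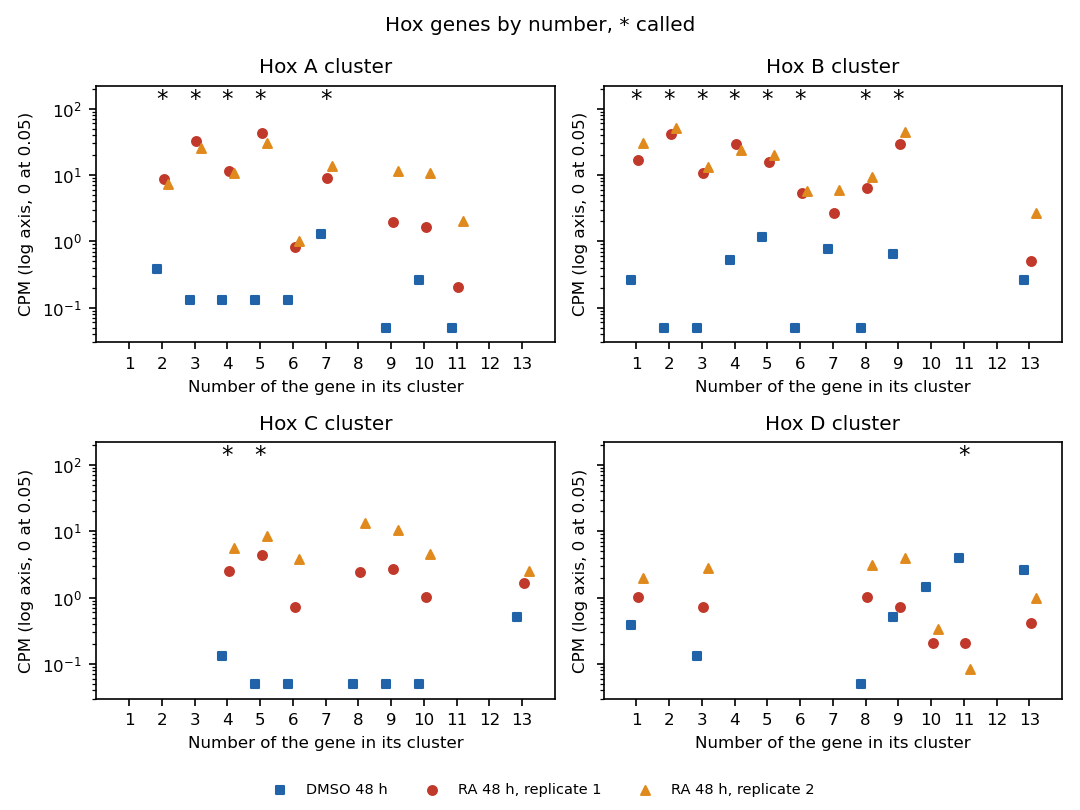
Level of the Hox genes drawn in CPM (log axis, 0 drawn at 0.05) against its number in the cluster, for the DMSO 48 h library and the 2 RA 48 h libraries; a star marks the 5, 8 and 2 of them called higher in Hox A, B and C and the 1 called lower in Hox D. RA libraries lie above the DMSO library for every gene drawn in Hox A, B and C. Genes with 0 counts in the DMSO library pass the filter only through other libraries, so for them this is partly set in advance. Of the 7 Hox C genes tested 5 had 0 counts there.

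Transcription factors that specify primitive endoderm rose. Of 17 tested, 9 were called higher (52.9%), 13 with the set term, and 0 lower, with a median log2 change of 2.62. Gata6, which sets the primitive endoderm fate in the blastocyst, stood at 3.76 CPM in the DMSO library and at 141 and 122 CPM with RA (5.12 ± 1.14, adjusted p = 0.0252, leave-one-out p 0.0628). Gata4, its partner, stood at 14.9 CPM against 252 and 183 CPM (3.87 ± 0.81, adjusted p = 0.0204, leave-one-out p 0.0560 without RA replicate 1). Sox17 went from 1.43 CPM to 78.4 and 30.0 CPM (5.24 ± 1.31, adjusted p = 0.0368). Its RA libraries differed more than those of the GATA factors, and its call also ended without 0 h replicate 2, 3 or 4 (leave-one-out p 0.109).

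The forkhead factors gave the firmest calls. Foxa1 (ENSMUSG00000035451), which opens chromatin at endoderm genes, had 1 count with DMSO and 68.2 and 64.8 CPM with RA, a count ratio of 512 (95% interval 91.7 to 20226; adjusted p = 0.000208). It was at 1.11 CPM with DMSO at 24 h and at 0.373 to 0.949 CPM at 0 h. Its log2 change with RA at 48 h against 0 h was 6.71. Foxa2 had 0 counts with DMSO and 30.3 and 32.8 CPM with RA, at least 81.4-fold higher (adjusted p = 0.0136). Foxq1 rose from 1.81 CPM to 228 and 213 CPM (6.91 ± 1.28, adjusted p = 0.0120). Hnf4a, a master regulator of visceral endoderm and liver, had 4.92 CPM in the DMSO library and 22.5 and 13.3 CPM with RA. It did not pass (1.86, adjusted p = 0.347) but was called with the set term (2.52, adjusted p = 0.00782). It was at 0.389 to 0.902 CPM in the 0 h libraries, so the DMSO library itself lay above all 4 of them. Sox7 was at 76.1 CPM against 224 and 192 CPM (adjusted p = 0.0731, or 0.00469 with the set term).

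**Figure D3:**
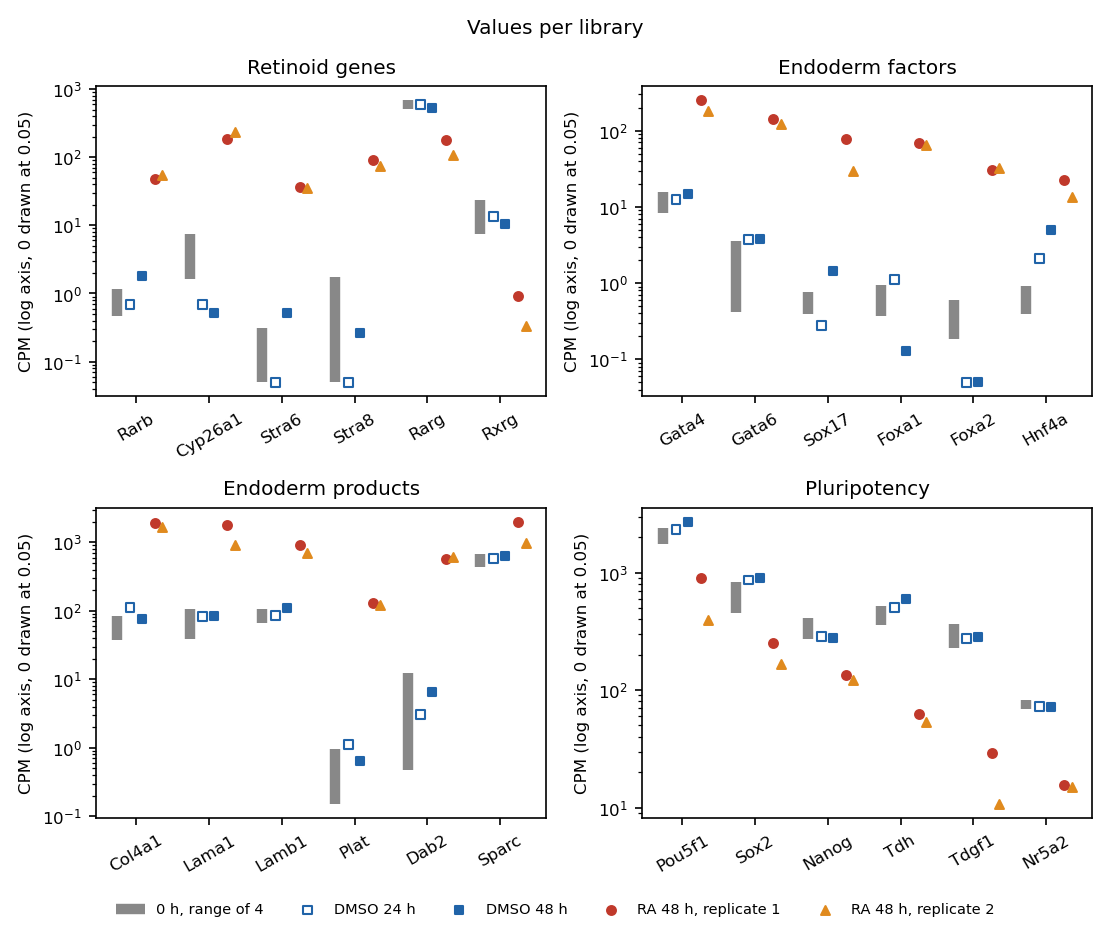
Level per library in CPM (log axis, 0 drawn at 0.05) of 24 genes in 4 panels: grey bars span the 4 libraries at 0 h, squares are the DMSO libraries and circles and triangles the RA 48 h replicates. For Rarb, Foxa1, Col4a1 and Plat the RA libraries lie above every library without RA, and for Pou5f1, Tdh and Tdgf1 below, while for Sparc they lie at 1978 and 981 CPM above 637 CPM.

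Surface and secreted products of primitive endoderm followed: 8 of 14 tested were called higher (57.1%), 13 with the set term, and 0 lower. The 8 became 4 without RA replicate 1 and 2 without replicate 2. Their summed level was 567 CPM in the DMSO library and 7669.6 and 5814 CPM with RA. The sum includes Col4a1, at 1916 and 1662 CPM with RA, and Lama1, at 1778 and 926 CPM. Both are counted again in the basement membrane list below, so the counts of these lists are not independent. Dab2, an endocytic adaptor of endoderm, stood at 6.48 CPM with DMSO and at 575 and 612 CPM with RA (6.51 ± 1.67, adjusted p = 0.0426). The call ended when either RA 48 h library, either 12 h library or 24 h RA replicate 2 was left out (leave-one-out p 0.0995). Lrpap1, the chaperone of the large endocytic receptors, rose from 99.4 CPM to 987 and 595 CPM (2.99 ± 0.41, adjusted p = 0.00360). The receptors themselves did not pass: Cubn was at 1.30 CPM against 94.4 and 68.7 CPM (adjusted p = 0.0622, or 0.00558 and called with the set term) and Lrp2 at 59.9 CPM against 327 and 219.5 CPM (adjusted p = 0.124). Pdgfra, a marker of primitive endoderm, was at 1.94 CPM against 104 and 54.8 CPM (adjusted p = 0.0639, or 0.000650 and called with the set term).

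Markers of parietal endoderm rose as well, 11 of 20 tested (55.0%; 15 with the set term) with 0 lower and a median log2 change of 2.97. The labels name no cyclic AMP agent. The 11 became 5 without RA replicate 1 and 6 without replicate 2. Plat (ENSMUSG00000031538), tissue plasminogen activator, rose from 0.648 CPM to 128 and 122 CPM (7.56 ± 0.81, adjusted p = 0.00141). Srgn, a proteoglycan core protein, rose from 3.24 CPM to 77.5 and 97.7 CPM (4.75 ± 1.10, adjusted p = 0.0287, leave-one-out p 0.0821). Pth1r, the receptor for parathyroid hormone-related peptide, rose from 2.85 CPM to 37.4 and 21.5 CPM (adjusted p = 0.0288, leave-one-out p 0.0911). Sparc, an abundant parietal product, did not pass, at 637 CPM against 1978 and 981 CPM (adjusted p = 0.175; 1.49 with adjusted p = 0.000210 with the set term). Fst, which encodes the activin antagonist follistatin, was at 2.46 CPM against 4.72 and 13.8 CPM, within the 4.36 to 13.6 CPM of the 0 h libraries for replicate 1 (adjusted p = 0.380).

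Basement membrane genes reached high levels. Col4a1 (ENSMUSG00000031502), a chain of collagen IV, stood at 74.9 CPM with DMSO and at 1916 and 1662 CPM with RA (4.58 ± 0.75, adjusted p = 0.00701), and its partner Col4a2 at 50.2 CPM against 1480.4 and 1001 CPM (4.63 ± 1.08, adjusted p = 0.0296, leave-one-out p 0.0703). The 3 chains of laminin-111 all rose: Lama1 from 84.5 CPM to 1778 and 926 CPM, Lamb1 from 109 CPM to 922 and 701 CPM, and Lamc1 from 342 CPM to 1029 and 741 CPM. Their log2 changes were 4.00 ± 0.97 (adjusted p = 0.0339), 2.89 ± 0.41 (0.00401) and 1.37 ± 0.27 (0.0164). Lama1 lost its call without either RA library or 0 h replicate 4 (leave-one-out p 0.0844), Lamc1 without RA replicate 1 (0.0513), and Lamb1 in none of the 13 fits. Col4a1 and Lama1 were also counted among the primitive endoderm products, and Col4a2 among the parietal markers. Of 22 tested basement membrane genes 6 rose (27.3%, or 11 with the set term and 3 without RA replicate 1) and 0 fell. Fbln1 was the sixth, from 71.5 CPM to 316 and 225 CPM (1.92 ± 0.31, adjusted p = 0.00629), and Nid1, which links laminin to collagen IV, was at 60.9 CPM against 212 and 166 CPM (adjusted p = 0.0556, or 0.00115 with the set term).

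Enzymes and chaperones that fold and crosslink collagen rose beside it, 6 of 20 tested (30.0%; 16 with the set term) with 0 lower. Serpinh1, the collagen chaperone HSP47, stood at 212 CPM with DMSO and at 1678 and 1425 CPM with RA (2.87 ± 0.60, adjusted p = 0.0203, leave-one-out p 0.0579). The prolyl hydroxylase P4ha2 rose from 8.29 CPM to 78.8 and 58.3 CPM (3.05 ± 0.39, adjusted p = 0.00258) and P4ha1 from 48.6 CPM to 162 and 132 CPM. Pxdn, whose peroxidase crosslinks collagen IV, rose from 28.3 CPM to 139 and 191 CPM (2.55 ± 0.39, adjusted p = 0.00535). Colgalt1, which adds galactose to collagen, rose from 156 CPM to 504 and 449 CPM (1.61 ± 0.21, adjusted p = 0.00273), and Qsox1, a disulfide-forming oxidase, from 13.3 CPM to 96.3 and 70.9 CPM.

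The wider secretory pathway moved in the same direction: 9 of 29 tested genes of folding and vesicle transport were called higher (31.0%; 17 with the set term) and 0 lower, or 5 without RA replicate 2 or 0 h replicate 2. Xbp1, a transcription factor of secretory capacity, rose from 48.0 CPM to 127 and 158 CPM (1.57 ± 0.22, adjusted p = 0.00416), and Creb3l2, another, from 11.4 CPM to 80.1 and 63.8 CPM (2.66 ± 0.51, adjusted p = 0.0140). The transport proteins Tmed3 and Sec24d rose from 4.28 CPM to 27.6 and 24.5 CPM and from 41.1 CPM to 121 and 113 CPM. Of 27 lysosomal and endocytic genes 5 were called higher (18.5%; 15 with the set term) and 0 lower, or 1 lower with the set term. The 5 became 2 without either RA 48 h or either 12 h library and 3 without 0 h replicate 2. Lgmn, the lysosomal protease legumain, rose from 33.0 CPM to 185 and 175 CPM (2.44 ± 0.28, adjusted p = 0.00180). Lamp2, a lysosomal membrane protein, rose from 35.1 CPM to 96.0 and 148 CPM (1.80 ± 0.41, adjusted p = 0.0283, leave-one-out p 0.0921).

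Markers of visceral endoderm gave few calls without the set term and many with it. Of 20 markers 12 could be tested, and 1 was called higher (8.33%, against 4.80% of all genes), or 9 higher and 1 lower with the set term. Their median log2 change was 4.71, or 3.18 with 4 genes at 0 counts in the DMSO library placed at their bound. Of the 12, 10 had both RA libraries above all 6 without RA, as did 24.3% of all genes. Genes at or near 0 without RA, such as Ttr, pass the filter only through RA libraries, so these values are partly set by it. The list summed to 559.6 CPM with DMSO, 804 and 689 CPM with RA and 259.6 to 355 CPM at 0 h. The called gene was Dkk1, a secreted Wnt inhibitor, with 1 count in the DMSO library and 63.4 and 31.8 CPM with RA (count ratio 355, 95% interval 63.5 to 14027). Its call ended in 7 of the 13 fits, those without either RA 48 h library, either 6 h library or 0 h replicate 1, 2 or 3 (leave-one-out p 0.108). Afp, alpha-fetoprotein, had 0 counts with DMSO and 1 and 12 counts with RA and was not tested. Ttr, transthyretin, had 0 counts with DMSO and 2.98 and 28.3 CPM with RA, at least 43.6-fold higher by the floor but not called (adjusted p = 0.0560, or 0.00550 and called with the set term), and most of it lay in replicate 2. Lefty1 was at 80.9 CPM with DMSO, already above the 18.7 to 29.6 CPM of the 0 h libraries, and at 238 and 212 CPM with RA (adjusted p = 0.253, or 0.00746 and called with the set term).

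Markers of other cell types were counted as a check of the cells. Of 8 tested fibroblast, blood and endothelial genes 1 was called higher (12.5%; 2 higher and 1 lower with the set term), and 5 of the 8 left untested, among them the blood genes Ptprc, Hba-a1 and Lyz2, had 0 counts in all 3 libraries. The called gene was Cdh5, an endothelial cadherin, from 2.33 CPM to 52.3 and 27.1 CPM (4.08 ± 0.93, adjusted p = 0.0276, leave-one-out p 0.0827). The summed level of the list was 46.7 CPM with DMSO, 82.9 and 57.9 CPM with RA and 51.4 to 69.9 CPM at 0 h. Of 16 neural genes 0 rose and 2 fell (12.5%; 2 and 4 with the set term): Zic2 from 31.0 CPM to 6.87 and 8.43 CPM, and Neurog3 from 7.00 CPM to 2.15 and 0.751 CPM. The leave-one-out p was 0.130 for Zic2, lost also without 0 h replicate 2, 3 or 4, and 0.122 for Neurog3, lost also without 0 h replicate 2 or 6 h replicate 2. Neurog1 and Neurog2 had 0 counts in all 3 libraries.

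Of 17 mesoderm genes 4 were called higher (23.5%; 6 higher and 1 lower with the set term), all from 0 to 2 counts with DMSO: Meox1, Tbx20, Hand2 and Pdgfrb, at 1.64 to 19.2 CPM with RA. The leave-one-out p was 0.0894 for Meox1, 0.0580 for Tbx20, 0.103 for Hand2 (also 0 h replicates 2, 3 and 4) and 0.122 for Pdgfrb (also 0 h replicates 2 and 4 and the 6 h and 12 h libraries). The 4 became 0 without RA replicate 2 and 2 without 0 h replicate 2 or 4. The list summed to 339.8 CPM with DMSO and 133 and 108 CPM with RA. Its most abundant member, Tcf15, stood at 329 CPM and at 93.5 and 30.4 CPM and was not called (adjusted p = 0.200, or 0.000205 and called lower with the set term). The primitive streak gene T was at 0.259 CPM with DMSO and 0.513 and 0.250 CPM with RA. Of 13 trophoblast genes 3 rose (23.1%, or 6 with the set term): Krt8, Gata3 and Esx1 (leave-one-out p 0.0598 for Esx1). Esx1 had 2 counts in the DMSO 48 h library but stood at 1.81 CPM in that of 24 h. With RA it stood at 4.62 and 4.34 CPM, and its call was lost with both DMSO libraries as control. Tpbpa and Prl3d1, markers of placental cells, had 0 counts in all 3 libraries. Of 14 germ cell genes 1 rose (7.14%, near the 4.80% of all genes, or 3 with the set term), Stra8, which is also on the early RA list. The part of such cells in the results above was not tested beyond these levels.

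Epithelial keratin and adhesion genes split. Krt8 rose from 2.85 CPM to 48.4 and 73.0 CPM (4.41 ± 0.78, adjusted p = 0.00993) and Dsp, desmoplakin, from 16.6 CPM to 232 and 246 CPM (3.85 ± 0.64, adjusted p = 0.00746). Epcam fell from 137 CPM to 52.4 and 46.0 CPM (-1.48 ± 0.33, adjusted p = 0.0245, leave-one-out p 0.127), and P-cadherin, Cdh3, from 54.7 CPM to 6.46 and 12.9 CPM (-2.49 ± 0.58, adjusted p = 0.0287, leave-one-out p 0.108). Neural cadherin, Cdh2, rose from 19.1 CPM to 70.8 and 96.9 CPM (2.14 ± 0.38, adjusted p = 0.00949). Of the 21 tested genes 4 were called higher (19%) and 2 lower (9.52%, or 0 without either RA 48 h library). With the set term the calls were 6 and 5. Cldn3, at 2.46 and 1.25 CPM and 0 counts with DMSO, was called higher. Its RA libraries overlapped with the 0.584 to 2.11 CPM of the 0 h libraries. The Cldn3 call was lost in 11 of the 13 fits, all but those without 0 h replicate 3 or the DMSO 24 h library (leave-one-out p 0.115). Among 21 genes of contractile actin 4 rose (19%; 7 with the set term) and 0 fell: Tagln, Ccn1, Cnn2 and Tpm1. Tagln, transgelin, went from 1.56 CPM to 25.6 and 41.7 CPM (4.42 ± 0.64, adjusted p = 0.00423) and Tpm1, tropomyosin, from 90.5 CPM to 292 and 531 CPM (2.18 ± 0.37, adjusted p = 0.00775). Of 13 integrins 2 rose (15.4%, against 4.80% of all genes, or 6 higher and 1 lower with the set term). They were Itga5 and Itgb1, the 2 chains of the main fibronectin receptor, with log2 changes of 1.01 ± 0.20 and 0.76 ± 0.20. Both calls ended when 1 library was left out (leave-one-out p 0.0756 and 0.108), Itgb1 also without 0 h replicate 2 or 4 or any 6 h or 12 h library.

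In signalling, the FGF list moved both ways, with 3 of 21 called higher and 3 lower (14.3% each; 1 lower without RA replicate 2; 5 each way with the set term). Fgf4, the FGF of pluripotent cells, fell from 130.0 CPM to 22.6 and 19.1 CPM (-2.64 ± 0.47, adjusted p = 0.0102, leave-one-out p 0.0713), while Fgf3, its neighbour on chromosome 7, rose from 1.04 CPM to 26.9 and 18.9 CPM (4.45 ± 0.91, adjusted p = 0.0178, leave-one-out p 0.0601). The receptors Fgfr2 and Fgfr3 rose from 10.9 CPM to 83.5 and 90.5 CPM and from 2.33 CPM to 26.0 and 18.5 CPM (3.00 ± 0.58 and 3.25 ± 0.61, leave-one-out p 0.0501 for Fgfr2). Genes that FGF signalling is known to induce fell, Spry4 from 483 CPM to 81.4 and 51.4 CPM (-2.86 ± 0.34, adjusted p = 0.00207) and Etv4 from 305 CPM to 55.1 and 36.1 CPM (-2.75 ± 0.46, adjusted p = 0.00780, leave-one-out p 0.0647). Spry2 was at 458 CPM against 132 and 92.4 CPM (adjusted p = 0.0554, or 0.000169 and called with the set term).

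In the BMP list 3 of 19 rose (15.8%; 1 without either RA 48 h library) and 0 fell, or 3 and 2 with the set term. Bmp2 had 1 count with DMSO and 19.8 and 15.2 CPM with RA (count ratio 133, 95% interval 23.8 to 5274; leave-one-out p 0.0843, 0 h replicates 2 and 3 included), and Bmp6 2 counts and 22.8 and 15.7 CPM (ratio 72.8, 20 to 603; leave-one-out p 0.0596). At 0 h Bmp2 stood at 0.292 to 1.80 CPM and Bmp6 at 0.949 to 1.35 CPM. Their log2 changes with RA at 48 h against 0 h were 4.56 and 4.06. Smad6, an inhibitor that BMP signalling induces, rose from 2.07 CPM to 34.5 and 26.0 CPM (3.86 ± 0.51, adjusted p = 0.00280), and Bmp4, at 291 CPM against 79.3 and 21.2 CPM, passed only with the set term (adjusted p = 0.000413). In the Wnt list 6 of 25 rose (24.0%) and 0 fell, or 8 and 2 with the set term. The 6 became 1 without RA replicate 2 and 3 without RA replicate 1, 0 h replicate 3 or either 6 h library. Secreted antagonists led: Sfrp5 (ENSMUSG00000018822) from 1.56 CPM to 118 and 147 CPM (6.40 ± 0.52, adjusted p = 0.000682), then Dkk1, above. Dkk3, a relative, went from 0.907 CPM to 15.5 and 16.0 CPM, a call that ended in 10 of the 13 fits, all but those without 0 h replicate 1 or 2 or the DMSO 24 h library (leave-one-out p 0.126). The receptor Fzd2 and the transcription factor Tcf7l2 rose from 5.44 CPM to 23.9 and 30.1 CPM and from 7.78 CPM to 26.2 and 31.8 CPM (leave-one-out p 0.0662 and 0.0544). In the nodal list 1 of 16 rose and 2 fell (3 each way with the set term), Tdgf1 and Gdf3, the latter in a call lost without any 0 h or 6 h library, 24 h RA replicate 2 or either RA 48 h library (leave-one-out p 0.222). The shares of the nodal list were 6.25% higher, near the 4.80% of all genes, and 12.5% lower, against 3.16%. With the set term 12.6% of all genes were higher and 11.5% lower. The nodal co-receptor Tdgf1 fell from 283 CPM to 29.0 and 10.7 CPM (-3.83 ± 0.46, adjusted p = 0.00207). Of 14 Notch genes the only call (1 higher and 3 lower with the set term) was Notch4, a share of 7.14% lower against 3.16% of all genes. Notch4 fell from 32.1 CPM to 5.64 and 2.75 CPM (-2.94 ± 0.38, adjusted p = 0.00275).

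Imprinted genes, which are expressed from the copy of a given parent and many of which act on growth, rose in 9 of 15 tested (60%; 10 higher and 1 lower with the set term) with 0 lower. H19 (ENSMUSG00000000031), a long noncoding RNA, stood at 1.56 CPM with DMSO and at 378 and 829 CPM with RA (8.59 ± 1.17, adjusted p = 0.00344). Igf2 (ENSMUSG00000048583), the growth factor of the same locus, rose from 4.02 CPM to 134 and 311 CPM (5.79 ± 0.59, adjusted p = 0.00133). Dlk1, Plagl1, Mest and Peg3 rose by 4.92 ± 0.74, 3.71 ± 0.60, 2.68 ± 0.42 and 2.87 ± 0.54. Peg3 was the most abundant, at 148 CPM with DMSO and 710.4 and 1444 CPM with RA. H19, Igf2, Dlk1, Mest and Peg3 were all higher in RA replicate 2 than in replicate 1, and these libraries belong to different sets, a difference whose part was not tested. Igf2r, Ndn and Sgce also rose, with leave-one-out p of 0.0612, 0.0843 and 0.0849.

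On the other side, pluripotency genes fell. Of 30 tested 13 were called lower (43.3%, against 3.16% of all genes), 0 higher, with a median log2 change of -1.03; with the set term 18 were lower and 2 higher. The 13 became 11 without RA replicate 1 and 4 without replicate 2. Pou5f1 (ENSMUSG00000024406), the core factor Oct4, stood at 2690.2 CPM with DMSO and at 900.4 and 393 CPM with RA (-2.06 ± 0.45, adjusted p = 0.0234, leave-one-out p 0.0999 without RA replicate 2). Sox2, its partner, fell from 905 CPM to 254 and 167 CPM (-2.11 ± 0.34, adjusted p = 0.00692, leave-one-out p 0.0501). Nanog was at 275 CPM against 134 and 122 CPM and passed only with the set term (-1.10 ± 0.35, adjusted p = 0.0774 without it and 0.00328 with it), and both RA libraries lay below all 6 without RA. The DMSO values of these 3 factors show that the control cells held the transcripts of the undifferentiated state.

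Tdh (ENSMUSG00000021953), a threonine-degrading enzyme specific to mouse pluripotent cells, gave one of the firmest decreases, from 599 CPM to 62.3 and 53.3 CPM (-3.37 ± 0.28, adjusted p = 0.000682). Nr0b1 fell from 252 CPM to 60.9 and 28.0 CPM (-2.50 ± 0.36, adjusted p = 0.00418), Nr5a2 from 71.5 CPM to 15.5 and 14.9 CPM (-2.24 ± 0.38, adjusted p = 0.00845, leave-one-out p 0.0572) and Zfp42, known as Rex1, from 764 CPM to 283 and 139 CPM (-1.85 ± 0.40, adjusted p = 0.0223, leave-one-out p 0.0971). Utf1 fell from 619.8 CPM to 111 and 44.2 CPM (-3.00 ± 0.74, adjusted p = 0.0363, leave-one-out p 0.174, ended by 0 h replicates 2, 3 and 4 too). Not all members went down: Klf4 was at 26.2 CPM against 119 and 54.5 CPM and Tbx3 at 111 CPM against 577 and 404 CPM. Neither passed (adjusted p = 0.149 and 0.175), both were the calls for higher levels with the set term, and Esrrb was at 285 CPM against 228 and 179 CPM (adjusted p = 0.189). Of 10 DNA methylation genes 2 fell (20%; 1 without RA replicate 1 or 0 h replicate 2 and 0 without RA replicate 2; 4 lower and 1 higher with the set term): Dnmt3l from 154 CPM to 37.3 and 34.7 CPM (-2.10 ± 0.44, leave-one-out p 0.103) and Uhrf1 from 502 CPM to 218 and 175 CPM (-1.35 ± 0.31, leave-one-out p 0.141, 0 h replicate 2 included).

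**Figure D4:**
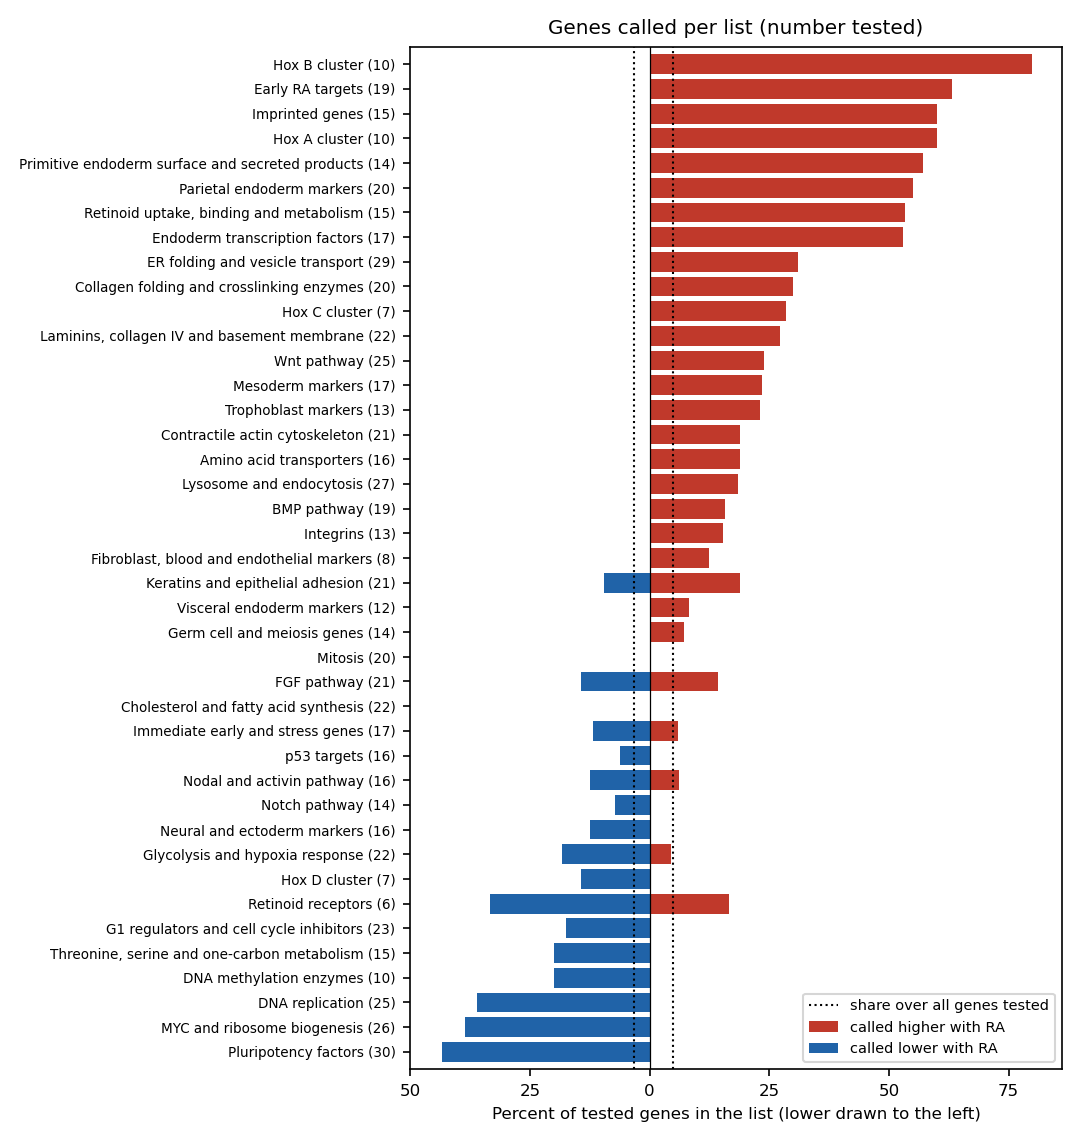
Percent of the tested genes in each of 41 lists called higher (red, to the right) and lower (blue, drawn to the left) with RA at 48 h; the number tested stands beside the name and dotted lines mark the shares over all genes, 4.80% and 3.16%. Hox B has 80% called higher and pluripotency factors 43.3% called lower. The lists were chosen with earlier results of these data known.

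Myc and the genes of ribosome building fell together: 10 of 26 were called lower (38.5%), 0 higher, with a median log2 change of -0.97, and with the set term 22 were lower and 1 higher. The 10 became 5 without RA replicate 1 and 4 without replicate 2. Myc stood at 264 CPM with DMSO and at 42.5 and 25.2 CPM with RA (-2.96 ± 0.61, adjusted p = 0.0193, leave-one-out p 0.113 without RA replicate 2). Ncl, nucleolin, fell from 2868 CPM to 1268 and 1511 CPM (-1.05 ± 0.19, adjusted p = 0.0101), and Rrp12, a ribosome maturation factor, from 181 CPM to 62.7 and 61.0 CPM (-1.55 ± 0.26, adjusted p = 0.00766, leave-one-out p 0.0552). The summed level of the list was 8879.8 CPM with DMSO, 4269 and 5088 CPM with RA and 9950.1 to 11708 CPM at 0 h. Of the replication genes 9 of 25 were called lower (36.0%; 18 with the set term) and 0 higher, with a median of -0.69. The 9 became 1 without either RA 48 h library, 4 without 0 h replicate 2 or 6 h replicate 2, and 5 without 0 h replicate 4 or 6 h replicate 1. Pcna, the sliding clamp, fell from 474 CPM to 112 and 107 CPM (-2.12 ± 0.53, adjusted p = 0.0366, leave-one-out p 0.152), Rrm2, a ribonucleotide reductase subunit, from 573 CPM to 211 and 253 CPM (-1.31 ± 0.26, leave-one-out p 0.0673) and Rfc5, a clamp loader, from 177 CPM to 84.2 and 83.1 CPM (-1.08 ± 0.18, leave-one-out p 0.0506).

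Mitosis genes gave 0 calls of 20, with a median of -0.18, and 4 lower calls with the set term. Of 23 regulators of G1 4 fell (17.4%; 0 without RA replicate 2, 1 without RA replicate 1 or 0 h replicate 2 and 2 without 0 h replicate 4; 6 lower and 1 higher with the set term): Ccnd1, Ccne1, Cdk6 and E2f2, by -1.59 ± 0.35, -1.15 ± 0.29, -1.96 ± 0.46 and -1.58 ± 0.42, with leave-one-out p of 0.130, 0.118, 0.138 and 0.205. Leaving out 0 h replicate 2 also ended the calls of Ccne1, Cdk6 and E2f2. Ccne1 was lost without 0 h replicate 4 or 12 h replicate 2 as well, and E2f2 without 0 h replicate 3 or 4, 6 h replicate 2 or 24 h RA replicate 2. In the p53 list 6.25% were called lower, against 3.16% of all genes. The inhibitor Cdkn1a, p21, was at 44.5 CPM against 55.3 and 85.9 CPM (adjusted p = 0.158), and Trp53, encoding p53, fell from 539 CPM to 244 and 208 CPM (-1.25 ± 0.21, adjusted p = 0.00703, leave-one-out p 0.0576) as the only call among 16 genes of its list (2 lower with the set term).

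Of 22 glycolysis and hypoxia genes 4 fell (18.2%; 1 without RA replicate 2) and 1, Vegfa, rose (4.55%). With the set term 11 were lower and 2 higher. Pdk1, a pyruvate dehydrogenase kinase, fell from 214 CPM to 58.2 and 43.6 CPM (-2.08 ± 0.22, adjusted p = 0.00134). Pkm, pyruvate kinase, fell from 2809.9 CPM to 1090.1 and 817 CPM (-1.56 ± 0.33, adjusted p = 0.0212), a call lost without RA replicate 2. Vegfa, a blood vessel growth factor, rose from 114 CPM to 231 and 308 CPM, in a call that also ended without 0 h replicate 2 or 4 or any 6 h or 12 h library (leave-one-out p 0.124). Of 15 genes of threonine, serine and one-carbon metabolism 3 fell, Tdh, Shmt1 and Mthfd1 (9 lower and 1 higher with the set term). Of 16 amino acid transporters 3 rose (18.8%), Slc7a6, Slc1a5 and Slc1a4 (4 higher and 2 lower with the set term). Slc7a6 went from 25.1 CPM to 127 and 166 CPM (2.54 ± 0.40, adjusted p = 0.00565), and the leave-one-out p was 0.112 for Mthfd1, 0.0865 for Slc1a5 and 0.0570 for Slc1a4. Cholesterol and fatty acid synthesis gave 0 calls of 22 (1 lower with the set term) and depended on the library: the summed level was 9178 CPM with DMSO and 8226 CPM in RA replicate 1, in the same set, but 4088 CPM in RA replicate 2, below the 4691 to 6878 CPM of the 0 h libraries.

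The 12 increases that the naming rule ranked first by fitted log2 change, at a mean of at least 5 CPM, all had 0 counts in the DMSO library. Their folds are lower bounds, so the order against genes with counts there, such as Foxa1, Cyp26a1 and H19, is not known. Beside Hoxb2, Foxa2, Hoxb3os and Cyp26b1 they were Igfbp5, S100g, Cyp1b1, Cdh6, Ednrb, Il33, Rasgrp3 and Thsd4. Igfbp5, an insulin-like growth factor binding protein, reached 33.0 and 65.3 CPM and stood at least 131-fold higher, and S100g, a calcium-binding protein, reached 18.9 and 38.0 CPM, at least 75.6-fold higher. Cyp1b1, a cytochrome P450 that can act on retinoids, differed most between replicates, 9.54 and 43.4 CPM (at least 72.6-fold). Il33, a nuclear cytokine, had the highest level at 0 h of the 12, 1.68 CPM in 1 library, and its call ended without any of the 0 h libraries or either RA library (leave-one-out p 0.0941). Cdh6, a cadherin, and Ednrb, the endothelin B receptor, stood at least 68.3-fold and 50.5-fold higher, at 22.9 and 29.5 CPM and at 17.2 and 21.6 CPM.

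At a mean of at least 5 CPM over the 3 libraries and with both RA libraries below all 6 without RA, the 12 largest decreases called with and without the set term were Vrtn, Gm12688, Foxd3, Slc27a2, Kirrel2, Enox1, En2, Pdzd4, Sned1, Chrna9, Nphs1 and Gm14817, with log2 changes from -5.29 to -3.97. Pdzd4 (ENSMUSG00000002006), a PDZ domain protein, gave the lowest adjusted p of the 12, from 139.8 CPM to 9.54 and 7.09 CPM (-4.07 ± 0.26, adjusted p = 0.000188). The 0 h libraries lay at 134 to 171 CPM, apart from RA as the rule required of all 12. Foxd3, a repressor needed in pluripotent cells, fell from 120.3 CPM to 8.00 and 1.75 CPM (-4.64 ± 0.99, adjusted p = 0.0214, leave-one-out p 0.105), and En2, a homeobox factor, from 97.3 CPM to 8.21 and 3.34 CPM (-4.08 ± 0.66, adjusted p = 0.00659). Slc27a2, which activates very long fatty acids, fell from 63.0 CPM to 2.36 and 2.84 CPM, and Sned1, a matrix protein, from 212 CPM to 18.6 and 7.01 CPM. Kirrel2 and Nphs1, which encode related adhesion proteins of the kidney filter, fell by 4.52 ± 0.47 and 4.04 ± 0.52 on the log2 scale. Vrtn lost its call without 0 h replicate 2, 3 or 4, either 24 h RA library or either RA 48 h library (leave-one-out p 0.170), and Chrna9 and Gm14817 without RA replicate 2 (0.0821 and 0.0749).

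Earlier, at 24 h, RA against the DMSO library of that time gave 305 calls (1.89%), 209 higher (1.29%) and 96 lower (0.594%), in a contrast that shares no library with that at 48 h but comes from the same model of 14 libraries and its shared spread. With the set term the calls came to 10.4%, 5.83% higher and 4.61% lower. Of them 246 were also called at 48 h in the same direction, 80.7% of the 24 h calls and 19.1% of the 48 h calls, and 0 in the opposite direction. Tested directly, 0 genes passed for a difference between the 48 h and the 24 h effect in edgeR; 680 did so at an unadjusted p under 0.05 (4.21%), and DESeq2 called 16. With the set term 10 passed (0.0619%), 7 toward a higher (0.0433%) and 3 toward a lower value (0.0186%) at 48 h. They included Igf2, with a log2 difference of 4.42 between the effects (adjusted p = 0.0404), Peg3 (2.79, 0.0246), Lamb1 (2.48, 0.0404), Lama1 (2.07, 0.0256) and Tpm1 (1.73, 0.0453). That count was 3 without RA replicate 1 of 24 h, 23 without its replicate 2, 33 without RA replicate 1 of 48 h and 2 without its replicate 2.

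Values by time are given for chosen genes, none of which passed the edgeR test of the 48 h against the 24 h effect without the set term. Rarb stood at 33.6 and 38.5 CPM after 24 h of RA, and Cyp26a1 at 286 and 244 CPM, both near their 48 h levels. Stra8 was higher at 24 h, at 259.7 and 225 CPM, than at 48 h, and so were Stra6, at 92.7 and 71.5 CPM, and Hoxb1, at 54.3 and 50.7 CPM. Igf2 was at 21.9 and 20.4 CPM at 24 h, Dab2 at 24.1 and 11.8 CPM, Tagln at 1.49 and 2.31 CPM, and Lamb1 at 139 and 92.5 CPM, well below their 48 h levels. Among the decreases Tdh had reached 42.1 and 54.0 CPM by 24 h, whereas Pou5f1 was still at 1597 and 938 CPM and Nanog at 231 and 345 CPM.

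**Figure D5:**
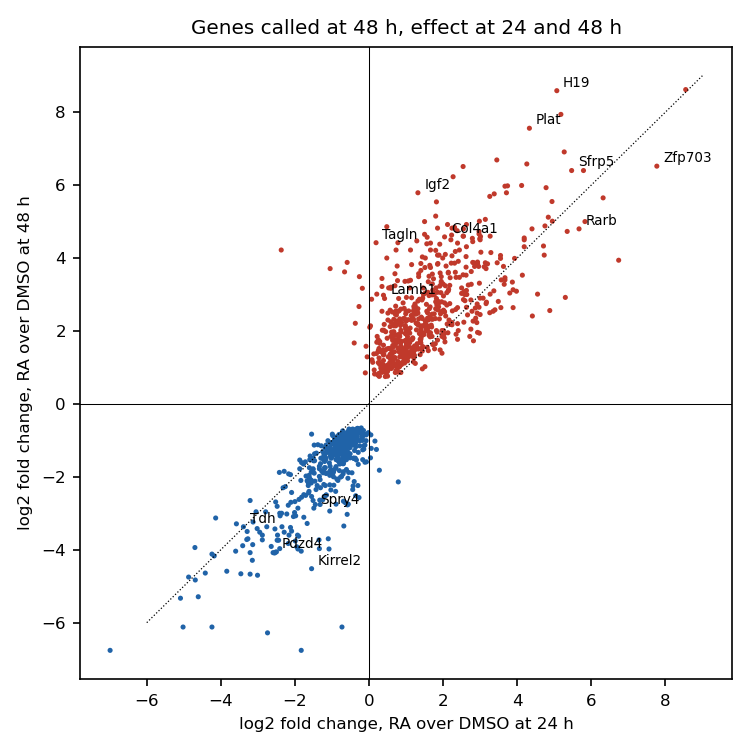
Log2 fold change of RA over DMSO at 48 h (vertical) against that at 24 h (horizontal) for the 1117 genes called at 48 h with at least 3 counts in the DMSO 48 h library and over 0.4 CPM in the DMSO 24 h library; red was called higher and blue lower, and the dotted line marks equal effects. The change was further from 0 in the called direction at 48 h for 530 of 608 genes called higher and for 476 of 509 called lower, which choosing genes by their call at 48 h favours.

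Solvent and culture alone gave 0 calls when the DMSO 48 h library was set against the 4 libraries at 0 h in edgeR, with or without the set term; 725 genes had an unadjusted p under 0.05 (4.49%), and DESeq2 called 3. These were Ap3b2, at 14 CPM against 4.10 to 5.11 CPM at 0 h, and Gm8199 and Gm12901, each at 0 with DMSO and at most at 52.5 and 66.1 CPM in a 0 h library. The 3 were named after their values were seen. This comparison has 1 library on the DMSO side, which limits what it can call.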

How the data were processed

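Messenger RNA was measured in 14 libraries of F9 cells. The tools named in the submitters' processing notes are TopHat2 2.0.7, HTSeq and DESeq, and the build is mm9; options are not given in the sources used here. The authors deposited raw read counts for each Ensembl gene, 36814 genes in 1 table per library; 5 further entries for reads given to no gene held 72.52 to 76.78% of all counts and were left out. Symbols were matched by gene ID for 31841 genes. The model was edgeR 4.0.16 under R 4.3.3: 1 quasi-likelihood model of all 14 libraries, 1 term per group, TMM normalization (factors 0.929 to 1.095), robust estimation and the default filter by group, which kept 16155 genes. P-values are two-sided and Benjamini-Hochberg adjusted over these. SE is the absolute log2 change over the square root of F. CPM, counts per 1000000 gene reads, uses TMM-scaled library sizes, and the DMSO group is assumed to vary like the others. Alternatives were DESeq2 1.42.0, RLE normalization, other filters, a set term, other controls and leaving out each library. Plots used matplotlib. The script was tested on simulated data.

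The genes named are the 12 largest increases and decreases called with and without the set term, at a mean of at least 5 CPM and with both RA libraries beyond all 6 without RA; fixed genes; and up to 4 called members per list. Other members, the DESeq2 calls and those of the 24 h against 48 h test were named after their values were seen. Members and lists were chosen with earlier results of these data known. The 2 library sets were taken from the data. Promoters came from a RefSeq table. Receptor-binding regions were not used here. For 4 genes counted in the lists, single values are not reported here.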

Additional observations from a re-analysis of the deposited data

Results flagged for a closer look

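Among the 4 libraries at 0 h, 1 library stood apart from the other 3 by Dixon's test in 6 of the 25 measures tried. The test's rate of about 1 in 20 assumes a normal spread, which levels near 0 do not have. The count of 6 was therefore not compared with that rate. The share of reads in no feature, from which the library sets were taken, was 57.65% in replicate 1 against 52.51 to 53.12% in the others. Replicate 1 is the only 0 h library of set 1. Lama1 was at 107 CPM in replicate 1 against 38.9 to 50.3 CPM, and Foxa2 at 0.601 CPM in replicate 1 against 0.186 to 0.211 CPM. Hoxb1 was at 0.973 CPM in replicate 4 against 0.150 to 0.211 CPM. Ttr was at 0.0932 CPM in replicate 2 and at 0 in the others, and Nanog at 410.5 CPM in replicate 2 against 269.8 to 291 CPM.

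With a term for the library set, 10 genes differed between the RA effect at 48 h and that at 24 h. The log2 difference of the effects was 2.79 for Peg3, 2.07 for Lama1, 2.48 for Lamb1, 4.42 for Igf2, 4.36 for Clic5, 1.73 for Tpm1 and 5.70 for Fst. It was -2.71 for Cpne5, -2.85 for Stmn3 and -2.28 for Kyat3. None of the 10 passed without the set term.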

How the results depend on the processing

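No paired analysis was possible because the DMSO libraries carry no replicate number in the labels; the set term was taken from the data and is not such a block. The count of 1286 genes called for RA against DMSO stayed within 1.5 times with RLE normalization, without a filter for low counts, with at least 1 CPM in 4 libraries, with an absolute log2 change of at least 1 (1136) and with only the 3 libraries (1409, from the residual spread of the RA libraries alone). It was 2209 with DESeq2, 3892 with the set term, 3399 with both DMSO libraries as control, and 406 to 1460 when 1 library was left out. The set term gave 2256 without RA replicate 1 of 48 h and 2898 without replicate 2. The 48 h against 24 h comparison gave 0 calls, 16 with DESeq2, 10 with the set term (with 1 library left out as well, an alternative chosen after seeing the data, 3, 23, 33 and 2) and 0 to 1 when 1 library was left out. DMSO against 0 h gave 0 calls, 3 with DESeq2 and 0 in every fit that left out 1 library. Of the 139 called genes chosen by the naming rule, 63 kept their call in every alternative and 0 changed sign; 47 lost it without RA replicate 1, 68 without replicate 2, 16 with only the 3 libraries and 0 with the set term or DESeq2. The cause of these shifts was not tested. A control of 1 library, in the set of only 1 of the RA libraries, limits every call.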

Other observations

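Immediate early and stress genes respond within minutes to serum and growth factors. Of 17 tested, 2 were called lower (11.8%, against 3.16% of all genes), or 0 without either RA 48 h library. The 1 called higher (5.88%) is near the 4.80% of all genes. With the set term 2 were lower and 3 higher, where 11.5% and 12.6% of all genes were. Egr1, a zinc finger factor, stood at 28.5 CPM with DMSO and at 3.59 and 2.92 CPM with RA (-3.13 ± 0.60, edgeR adjusted p = 0.0143, leave-one-out p 0.0919). After 24 h of RA it was already at 1.70 and 2.39 CPM, against 36.6 CPM in the DMSO library of that time. Ier2 fell from 195 CPM to 68.1 and 61.7 CPM (-1.58 ± 0.34, adjusted p = 0.0210, leave-one-out p 0.112). Fosl2, an AP-1 subunit, rose from 5.05 CPM to 31.8 and 27 CPM (2.54 ± 0.65, adjusted p = 0.0399, leave-one-out p 0.102, ended also by 0 h replicates 3 and 4).

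Clic5, which encodes a chloride channel family protein, and Cpne5, a copine, kept their calls in each of the 13 fits that left out 1 library. Clic5 was at 1.81 CPM with DMSO and 64.2 and 42.0 CPM with RA at 48 h, and at 7.38 CPM with DMSO and 9.16 and 11.5 CPM with RA at 24 h. Cpne5 was at 43.0 CPM against 6.36 and 2.17 CPM at 48 h, and at 56.5 CPM against 44.4 and 26.3 CPM at 24 h. Among the called genes chosen by the naming rule, 4 pairs were neighbours in the RefSeq gene order: Cyp26a1 with Cyp26c1, Hoxb1 with Hoxb2 and Hoxb2 with Hoxb3os, all higher, and Fgf3 with Fgf4, called in opposite directions.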
